A study of Mus musculus with 14 samples.

Results

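Mast cells are resident immune cells of connective tissue that store proteases, histamine and proteoglycans in secretory granules and release them on stimulation. The 8 genes described here encode granule proteases (Tpsb2, Cma1, Mcpt4 and Cpa3), surface receptors (Kit, Fcer1a and Ms4a2) and the enzyme that makes histamine (Hdc). Tpsb2 encodes tryptase beta 2, Cma1 and Mcpt4 encode chymases, and Cpa3 encodes carboxypeptidase A3. Kit is the receptor for stem cell factor, while Fcer1a and Ms4a2 encode the alpha and beta chains of the high-affinity receptor for immunoglobulin E. The genes form a named list that was chosen by the high CPM of Tpsb2 and Cma1 in the DN libraries, so their levels in DN are a description and are not tested. All 8 were found among the 52636 genes of the count table, and all 8 passed the filter on low counts, although Ms4a2 did not pass it once the DN libraries were left out.

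Counts came from 14 libraries, 2 in each of 7 groups of cells sorted by flow cytometry. All groups came from the dermis of male C57/BL6 mice aged 7 weeks, sampled at the wound bed 5 days after injury. A new set of 6 libraries held AdipoqTraced (cells traced by Adipoq, in columns named GFP), CD26 and Adipocyte cells. A reanalysed set of 8 libraries held DN (columns named CD29Low), CD29 (columns named CD29High), AP_CD9High and AP_CD9Low cells. The labels spell out neither AP nor DN, and they give neither the Cre line behind the Adipoq tracing nor the sorting gates. No group occurred in both sets, so set and group cannot be told apart between them. Replicates are not stated to be separate animals, so a p-value here reflects spread between libraries that may be technical replicates.

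Library totals ran from 13760557 to 22218364 counts. Mitochondrial genes took 79.07% and 84.79% of the counts in Adipocyte, 18.45% to 38.77% in AdipoqTraced and CD26, and 0.1924% to 0.9412% in the reanalysed set. Only 2952186 and 3255546 counts of the Adipocyte libraries were not mitochondrial, so that 1 count there was worth 0.235 and 0.195 CPM (the standard count scaled by library size, after TMM correction). The adipocyte list summed to 7935 and 5256 CPM in Adipocyte and to at most 97.38 CPM in any other library. Itgb1, which encodes CD29, had 578.1 and 588.9 CPM in DN and 646.6 and 878.4 CPM in CD29.

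The genes lie on 7 chromosomes of the mm10 build, and 2 of them lie in the same protease cluster. Cma1 (ENSMUSG00000022225.6, chromosome 14, 55941451 to 55944675, minus strand) and Mcpt4 (ENSMUSG00000061068.6, chromosome 14, 56059629 to 56062313, minus strand) belong to the chymase locus. Tpsb2 (ENSMUSG00000033825.9) is at chromosome 17, 25366305 to 25369098, on the plus strand. Cpa3 (ENSMUSG00000001865.2) is at chromosome 3, 20215620 to 20242181, on the minus strand. Sequence shared with near-identical copies was limited: 5.38% of the 50-base words of Cma1 and 5.48% of those of Mcpt4 also occur in another gene, against 2.1% for Ms4a2, 0.141% for Hdc and 0% for the other 4.

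The 250 bases before the start site were available from the RefSeq table (GRCm38.p6) for 7 of the 8 genes. They are shown for the 3 proteases below, which were called together in CD29 against AP cells. Capitals mark GATAA or its reverse complement TTATC, the core read by GATA factors, of which GATA2 is known to act in mast cells. The windows are chr14:55944676-55944925 for Cma1, chr14:56062311-56062560 for Mcpt4 and chr3:20242182-20242431 for Cpa3, all on the minus strand and printed 5′ to 3′.
Cma1: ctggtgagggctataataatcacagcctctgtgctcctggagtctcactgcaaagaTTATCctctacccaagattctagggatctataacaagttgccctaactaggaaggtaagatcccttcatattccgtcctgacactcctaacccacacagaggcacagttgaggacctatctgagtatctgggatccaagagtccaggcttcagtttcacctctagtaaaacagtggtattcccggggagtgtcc
Mcpt4: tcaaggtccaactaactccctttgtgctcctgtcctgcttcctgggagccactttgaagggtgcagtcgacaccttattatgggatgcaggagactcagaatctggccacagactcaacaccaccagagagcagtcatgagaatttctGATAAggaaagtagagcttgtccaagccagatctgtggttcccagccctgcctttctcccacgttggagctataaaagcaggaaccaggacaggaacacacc
Cpa3: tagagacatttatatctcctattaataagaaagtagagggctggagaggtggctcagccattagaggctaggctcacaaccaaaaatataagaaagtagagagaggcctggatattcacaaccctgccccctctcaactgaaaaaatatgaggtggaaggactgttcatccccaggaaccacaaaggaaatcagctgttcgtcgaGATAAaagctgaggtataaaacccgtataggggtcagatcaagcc
The 7 genes had 8 windows, since Kit had 2. GATAA on either strand occurred in 5 of the 8 windows, against 22.6% of the 32851 windows in the table. The word began 194 bases before the start site in Cma1, 102 bases in Mcpt4 and 45 bases in Cpa3. Hdc and Kit held no such word. CATGTG, an E-box word, read on both strands, occurred in 1 of the 8 windows (Fcer1a, apart from its GATAA word), against 12.3% of all windows. A word in a window is a description and shows no binding.

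The granule proteases were highest in the DN libraries and absent from the AP_CD9Low libraries. Tpsb2 had 80.68 and 138 CPM in DN, 16.78 and 18.41 CPM in CD29, 0.6877 and 2.224 CPM in AP_CD9High, and 0 counts in both AP_CD9Low libraries. The 4 groups did not overlap, and their order was DN, CD29, AP_CD9High, AP_CD9Low. Cma1 followed the same order, with 86.09 and 120.3 CPM in DN, 9.557 and 11.74 CPM in CD29, 2.025 and 3.144 CPM in AP_CD9High, and 0 in AP_CD9Low. Mcpt4 had 43.48 and 24.97 CPM in DN, 3.333 and 8.817 CPM in CD29, 0.382 and 0.6135 CPM in AP_CD9High, and 0 in AP_CD9Low. Cpa3 had 70.56 and 79.36 CPM in DN, 6.342 and 19.1 CPM in CD29, 0.6113 and 2.454 CPM in AP_CD9High, and 0 in AP_CD9Low. For all 4 proteases, every library of a group thus lay above every library of the next. The share of all genes in this full order was not counted. Every AP_CD9High library lay above every AP_CD9Low library for 16.2% of all tested genes. Every CD29 library lay above every AP library for 14.6%. The step from DN to CD29 rests on the libraries used for the choice. In bulk samples, fewer cells of a type and less RNA per cell cannot be told apart.

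**Figure D1:**
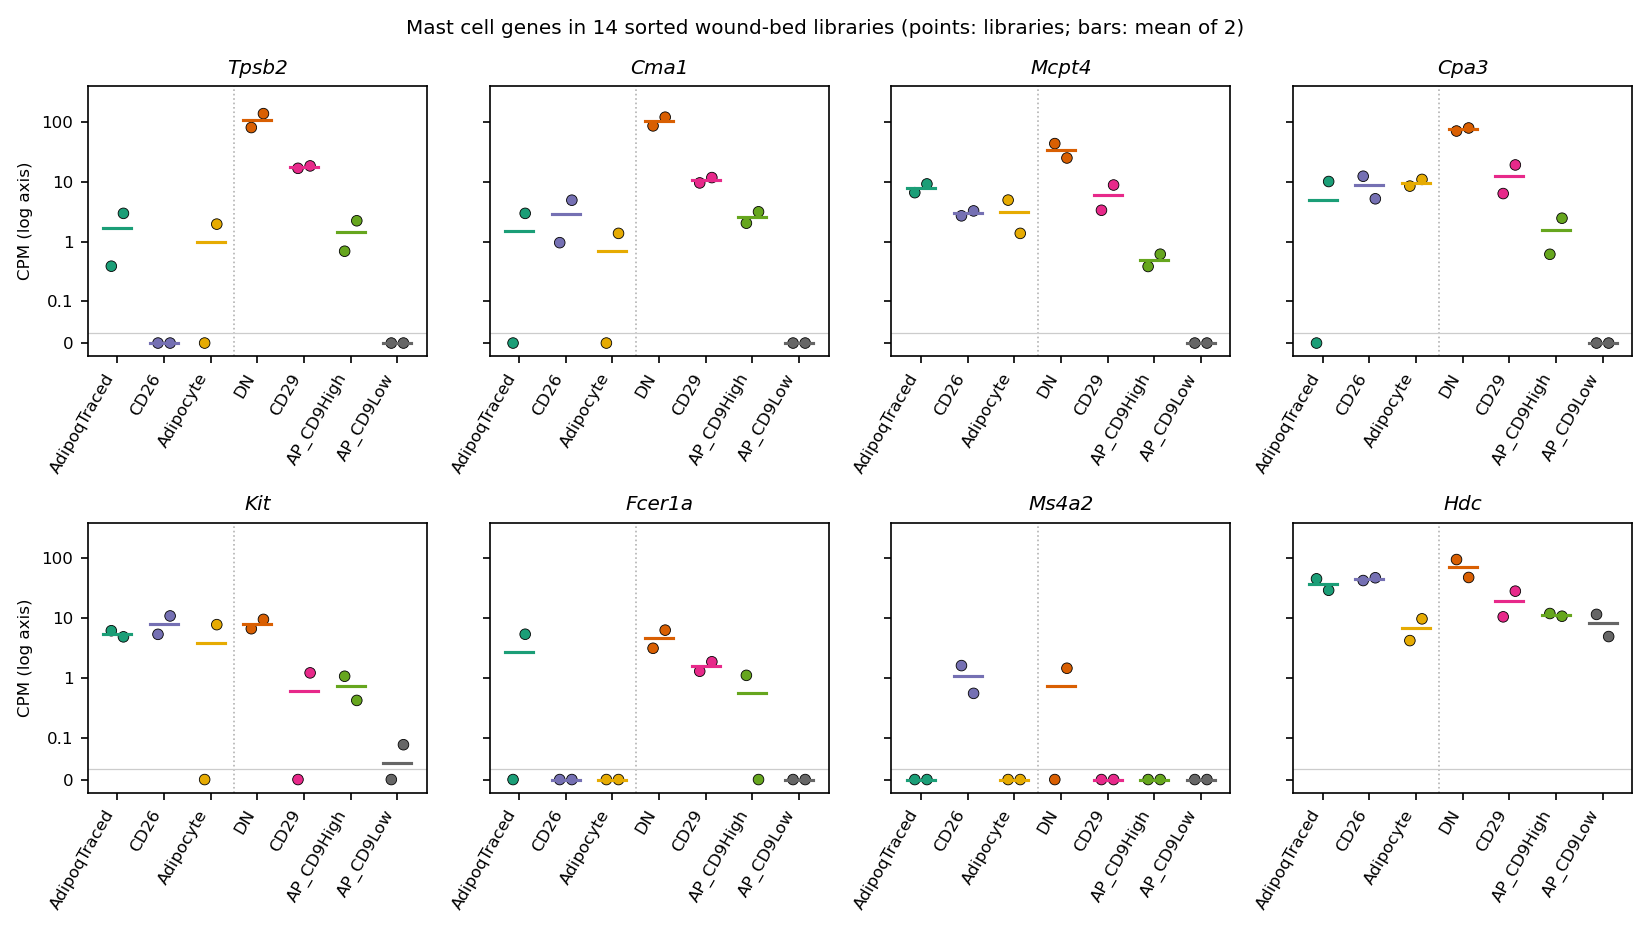
CPM of each mast cell gene in every library, on a log axis with 0 drawn below the grey line. Points are libraries, bars are group means of 2, and the dotted line parts the new set from the reanalysed set. The 4 proteases step down over DN, CD29, AP_CD9High and AP_CD9Low, while Hdc has counts in all 14 libraries.

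Each protease was several times as high in DN as in CD29, the next group. The mean in DN was 6.21 times that in CD29 for Tpsb2, 9.69 times for Cma1, 5.63 times for Mcpt4 and 5.89 times for Cpa3. Against AP_CD9High, the means in DN were 75.1, 39.9, 68.8 and 48.9 times as high in the same gene order. Against the floor of 3 counts over both AP_CD9Low libraries, Tpsb2 was at least 1930-fold, Cma1 at least 1820-fold, Cpa3 at least 1320-fold and Mcpt4 at least 603-fold higher in DN. The summed CPM of the 8 genes was 5.93 times as high in DN as in CD29. These values describe the libraries on which the genes were chosen.

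The receptor genes were detected at much lower levels. Kit, which is also expressed by melanocytes, had 6.68 and 9.571 CPM in DN, 0 and 1.219 CPM in CD29, 1.07 and 0.4218 CPM in AP_CD9High, and 0 and 0.07659 CPM in AP_CD9Low. DN was the high group here, while the CD29 and AP_CD9High libraries overlapped. The melanocyte list summed to 39.62 CPM in DN replicate 2, where Kit had 9.571 CPM. It summed to 0 in DN replicate 1, where Kit had 6.68 CPM. Which cells gave the Kit counts was not tested. Fcer1a had 3.145 and 6.325 CPM in DN, 1.298 and 1.869 CPM in CD29, 1.108 and 0 CPM in AP_CD9High, and 0 in AP_CD9Low. Its DN libraries lay above the CD29 libraries, and these above the AP libraries. Ms4a2 was seen only in DN replicate 2 of this set, at 1.457 CPM (35 counts). A count of 0 in DN replicate 1 allows up to 0.0973 CPM.

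Hdc, histidine decarboxylase, was the only member with counts in every library. It had 95.95 and 48.11 CPM in DN, 10.56 and 28.4 CPM in CD29, 12 and 10.81 CPM in AP_CD9High, and 11.6 and 4.94 CPM in AP_CD9Low. The DN libraries were highest, but CD29 and both AP groups overlapped one another. The mean in DN was 3.7 times that in CD29 and 8.71 times that in AP_CD9Low. Hdc is also known from basophils and myeloid cells.

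Compared per kilobase of exon, the proteases made up most of the signal in DN. Cma1 gave 33.7% and 38.4% of the summed CPM per kilobase of the 8 genes in DN, Tpsb2 21.6% and 30.1%, Cpa3 19.9% and 18.2%, Mcpt4 16.8% and 7.85%, and Hdc 6.41% and 2.62%. In CD29 the corresponding shares were 29.8% and 21.8% for Cma1 and 35.8% and 23.4% for Tpsb2. The level of Cma1 per kilobase was 1.56 and 1.27 times that of Tpsb2 in DN, and 0.833 and 0.933 times in CD29. In AP_CD9High, Cma1 gave 30.2% and 35.2%, Tpsb2 7.02% and 17%, Cpa3 6.56% and 19.7%, Hdc 30.6% and 20.7%, and Fcer1a 18.1% and 0%. The share of Cma1 there lay within its range over DN and CD29, and that of Hdc lay above its range. In AP_CD9Low, Hdc gave 100% and 98.9% of the per-kilobase signal, on 310 and 131 counts.

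**Figure D2:**
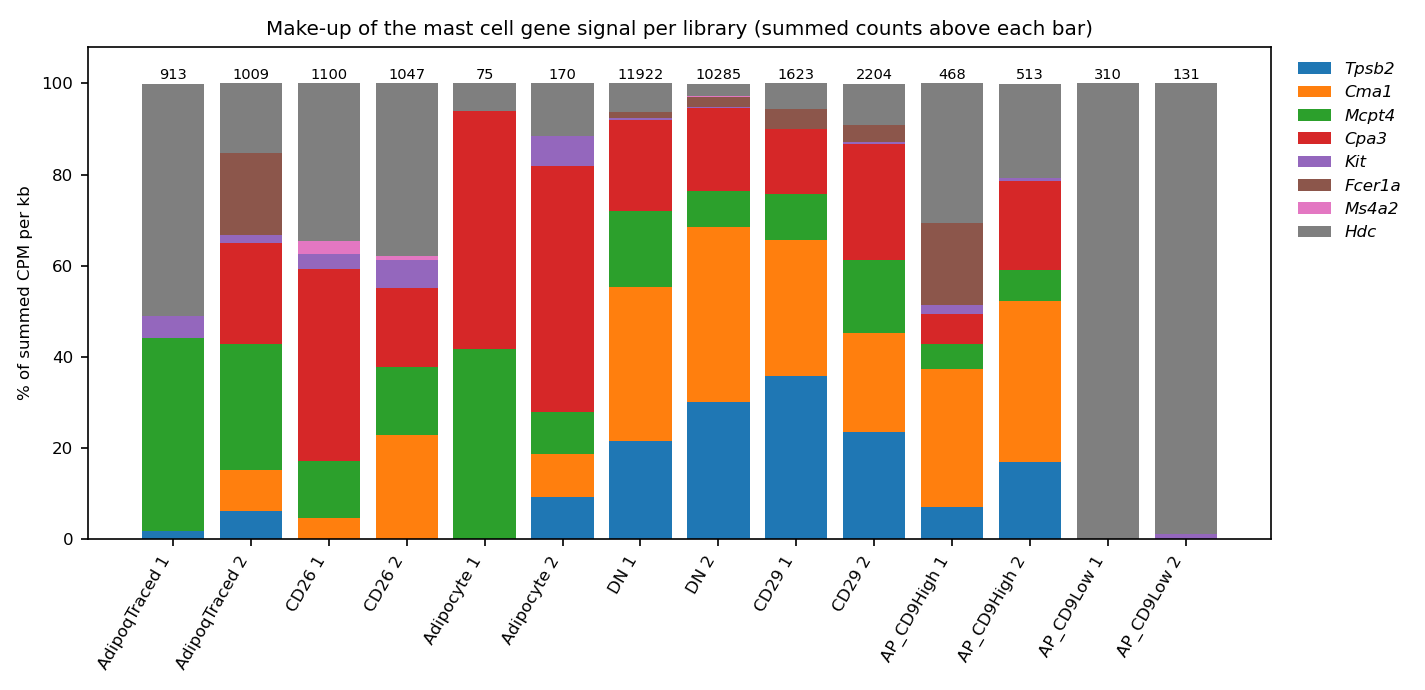
Share of each mast cell gene in the summed CPM per kilobase of the 8 genes, one bar per library, with the summed raw counts above it. Proteases fill most of the DN and CD29 bars, and Hdc fills both AP_CD9Low bars, which rest on 310 and 131 counts.

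The chymase locus was used unevenly. Of 15 protein-coding genes between Cma1 and Gzmb, over 320.8 kilobases, 8 had 0 counts in all 14 libraries. These were Cma2, Mcpt1, Mcpt9, Mcpt2, Gzme, Gzmd, Gzmg and Gzmf. Mcpt1 and Mcpt2 are known as proteases of mucosal mast cells, and Mcpt4 and Cma1 as proteases of connective tissue mast cells. Among these genes at 0, Mcpt4 averaged 34.23 CPM in DN and Cma1 103.2 CPM. Mcpt8, a basophil protease, had 0.3567 and 3.246 CPM in DN. Ctsg, which encodes cathepsin G, had 0 and 0.9987 CPM in DN. Gzmb had 2.075 and 12.82 CPM in DN. Gzmn and Gzmc were at 0 in DN, and Gzmn averaged 2.564 CPM in AP_CD9High and 2.314 CPM in AP_CD9Low. At the tryptase locus, Tpsg1, next to Tpsb2, had 0.9404 and 0 CPM in DN. The second tryptase gene, Tpsab1, had 6.647 and 7.865 CPM in DN, 2.419 and 4.348 CPM in CD29, 0.4967 and 0 CPM in AP_CD9High, and 0 in AP_CD9Low. The locus genes and Tpsab1 were picked with these values known.

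**Figure D3:**
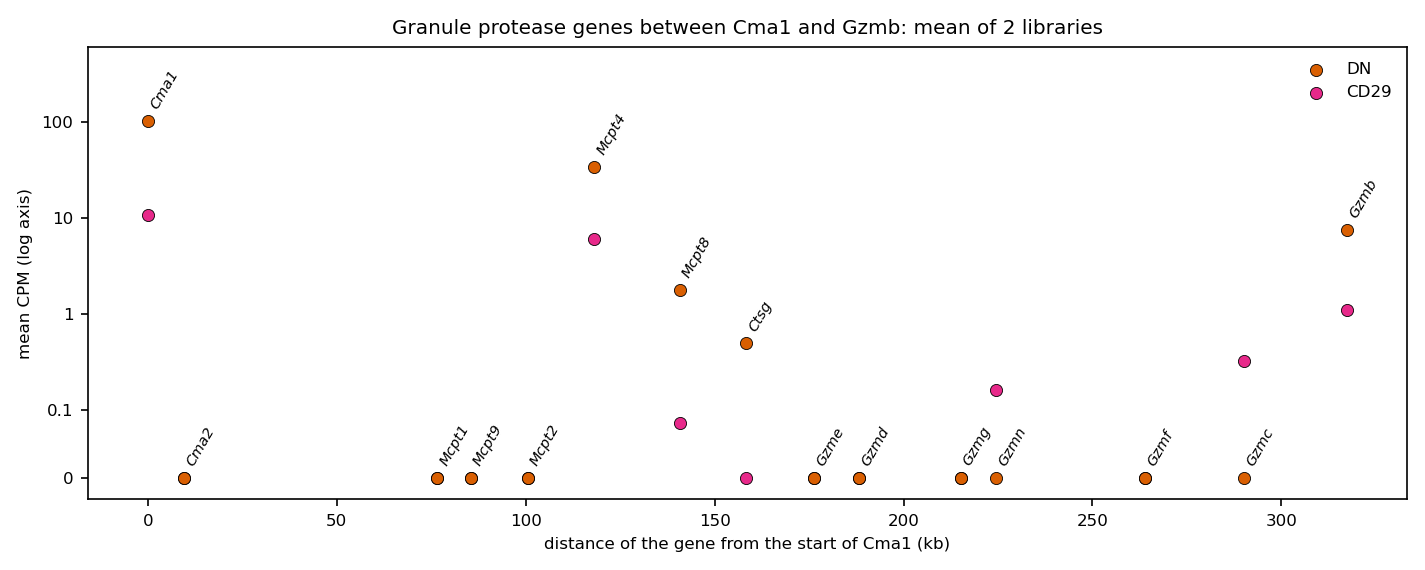
Mean CPM in DN and CD29 (2 libraries each, log axis with 0 at the bottom) of the 15 protein-coding genes between Cma1 and Gzmb, by distance from Cma1. Cma1 and Mcpt4 stand above neighbours that have 0 counts.

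CD29 cells carried more of the 4 protease transcripts than AP cells. The rule for the choice named DN levels and not this contrast, but the list was made with earlier results of these data known. The question is how the populations of the reanalysed set differ. In the quasi-likelihood test of edgeR with Benjamini-Hochberg adjustment over all 18394 genes, 4 of the 8 genes were higher and 0 were lower, where 2.53% of all genes were higher and 4.41% were called in either direction. Tpsb2 averaged 17.59 ± 1.148 CPM in CD29 (SD, n = 2) and 0.7279 ± 1.049 CPM in AP (n = 4 libraries, which may not be separate samples), a 24.2-fold higher mean (adjusted p = 0.000108). Cma1 was 8.24-fold higher (10.65 ± 1.546 against 1.292 ± 1.561 CPM, adjusted p = 0.00244). Mcpt4 was 24.4-fold higher (6.075 ± 3.878 against 0.2489 ± 0.3025 CPM, adjusted p = 0.00212). Cpa3 was 16.6-fold higher (12.72 ± 9.02 against 0.7663 ± 1.161 CPM, adjusted p = 0.00549). Since AP_CD9Low was at 0 for these genes, the fitted fold changes depend on the prior count and ratios of mean CPM are given. Each adjusted p tests the fitted log2 fold change against the mean of both AP coefficients, and not the ratio beside it. These fitted values were 7.55 (SE 0.94) for Tpsb2, 6.4 (SE 1.14) for Cma1, 6.73 (SE 1.21) for Mcpt4 and 7 (SE 1.35) for Cpa3. The other members missed the threshold in the same test, at an adjusted p of 0.33 for Hdc, 0.432 for Fcer1a and 0.909 for Kit, and Ms4a2 was at 0 in all 6 libraries. Every CD29 library lay above every AP library for 5 of the 8 genes, and for 14.6% of all genes. Over the 7 genes with a count, the median log2 ratio of means was 3.04, and the median fitted log2 fold change of all tested genes was 0.1.

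Most of these calls were lost when AP_CD9Low, where these genes were at 0, was left out of the comparison. Set against AP_CD9High alone, an alternative chosen after the data were seen, 1 of the 4 calls remained in the edgeR test. Tpsb2 kept an adjusted p of 0.00875 (log2 fold change 3.59), while Mcpt4 was at 0.0687 (3.54), Cpa3 at 0.157 (3.01) and Cma1 at 0.219 (2.03), all still higher in CD29. This alternative also sets 2 libraries against 2 in place of 2 against 4, so the part of AP_CD9Low in the lost calls was not tested. Over the whole table it called 278 genes, against 811 in CD29 against AP. Without CD29 replicate 2, the edgeR test called 2 of the 8 genes in CD29 against AP.

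AP_CD9High and AP_CD9Low cells differed in detection rather than in a call. In AP_CD9High both libraries had counts of Tpsb2, Cma1, Mcpt4 and Cpa3, and in AP_CD9Low both had 0. The bounds were at least 45.5-fold for Cma1, at least 27-fold for Cpa3, at least 25.6-fold for Tpsb2 and at least 8.77-fold for Mcpt4. With Kit included, 5 of the 8 members had every AP_CD9High library above every AP_CD9Low library, where 16.2% of all tested genes did. The edgeR test called 0 of the 8, with 2 members at an unadjusted p under 0.05 (Cma1 and Tpsb2), and 0.0217% of all genes were called. DESeq2 called 3 of the 8 in this contrast, and 66 genes over the whole table.

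**Figure D4:**
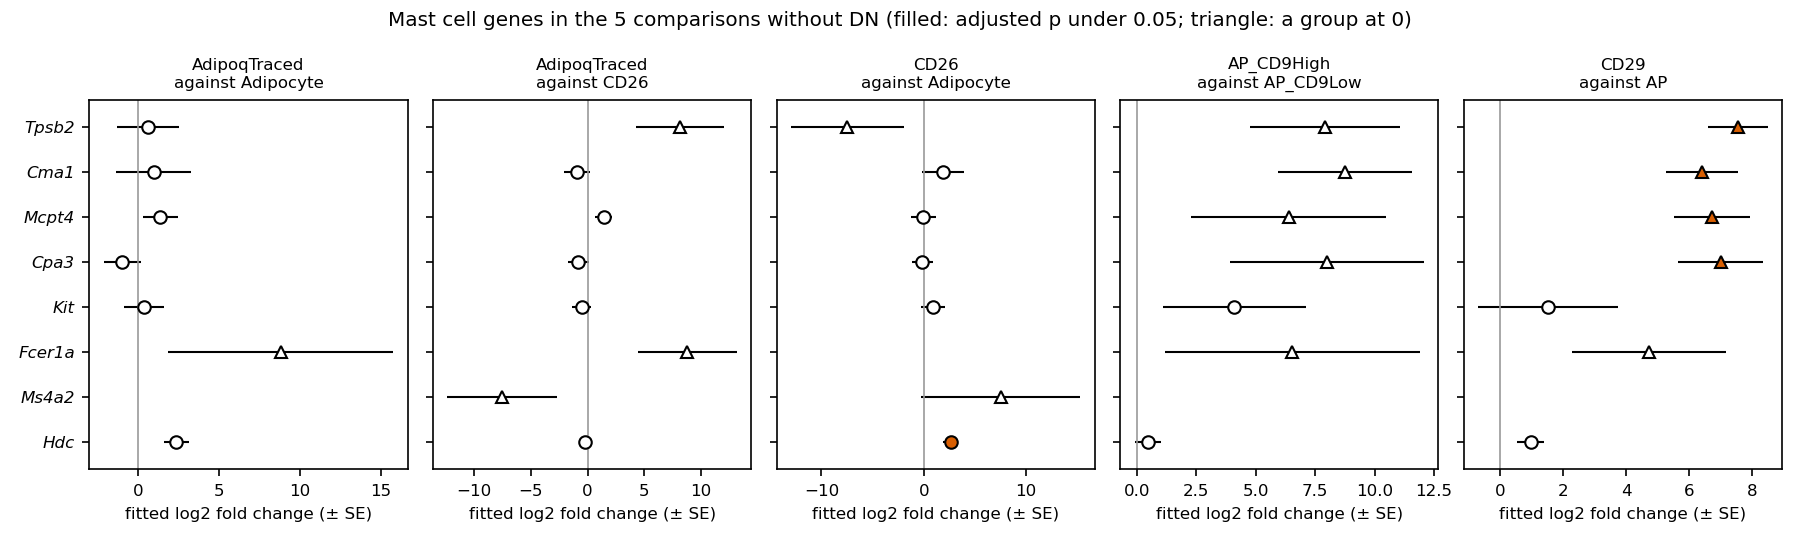
Fitted log2 fold change of each gene (points) with its approximate standard error (bars) in the 5 tested comparisons. Filled points have an adjusted p under 0.05, triangles mark comparisons with a group at 0 in both libraries, whose size depends on the prior count, and genes at 0 in both groups are left out. Filled points are the 4 proteases in CD29 against AP and Hdc in CD26 against Adipocyte.

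In the new set, Hdc was the 1 member that edgeR called, in 1 of the 3 comparisons. Hdc had 45.66 and 29.38 CPM in AdipoqTraced, 42.74 and 47.6 CPM in CD26, and 4.227 and 9.77 CPM in Adipocyte. Both AdipoqTraced and CD26 lay above Adipocyte without overlap, and they overlapped each other. Such a lack of overlap was found for 2 of the 8 genes in AdipoqTraced against Adipocyte (26.6% of all genes) and for 2 of the 8 in CD26 against Adipocyte (31% of all genes). In CD26 against Adipocyte, Hdc was higher (45.17 ± 3.434 against 6.998 ± 3.919 CPM, SD, n = 2 each) with a log2 fold change of 2.64, SE 0.75 and an adjusted p of 0.029 by edgeR. It was the 1 member called there, where 5.45% of all genes were higher and 10.7% were called in either direction, so the share of members called was near that of all genes. DESeq2 also called Tpsb2 lower there (adjusted p = 0.00445), with 0 counts in both CD26 libraries and 10 counts in 1 Adipocyte library. The edgeR call of Hdc was lost with the replicate block (adjusted p = 0.0588) and when any 1 of the 4 libraries was left out, at an adjusted p of 0.0732 without CD26 replicate 1, 0.0995 without CD26 replicate 2, 0.303 without Adipocyte replicate 1 and 0.143 without Adipocyte replicate 2. In AdipoqTraced against Adipocyte the log2 fold change of Hdc was 2.38, SE 0.76, with an adjusted p of 0.0561 by edgeR. The edgeR test called 0 of the 8 genes there (1 at an unadjusted p under 0.05), and 10.5% of all genes. DESeq2 called 1 of the 8, which was Hdc. In AdipoqTraced against CD26, edgeR called 0 of the 8 (0 at an unadjusted p under 0.05) and 3.85% of all genes. DESeq2 called Tpsb2 alone of the 8, as higher (adjusted p = 0.00286), and 1251 genes over the whole table. Scaled by library size only, all genes together had a median of 2.25 on the log2 scale in AdipoqTraced against Adipocyte (0.19 as reported) and 1.95 in CD26 against Adipocyte (0.24 as reported), and that of Hdc was 4.45 and 4.37; CD29 against AP gave 0.39 (0.1 as reported).

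The proteases of the new set were low and uneven between replicates. Tpsb2 had 0.3864 and 2.958 CPM in AdipoqTraced, 0 in both CD26 libraries, and 0 and 1.954 CPM in Adipocyte. Cma1 had 0 and 2.958 CPM in AdipoqTraced, 0.9564 and 4.912 CPM in CD26, and 0 and 1.368 CPM in Adipocyte. Neither gene was above 5 CPM in any of the 6 libraries, and the groups overlapped except for Tpsb2 in AdipoqTraced against CD26. Cpa3 had 0 and 10.09 CPM in AdipoqTraced, 12.37 and 5.188 CPM in CD26, and 8.454 and 10.94 CPM in Adipocyte. Mcpt4 had 6.569 and 9.194 CPM in AdipoqTraced, 2.69 and 3.251 CPM in CD26, and 4.932 and 1.368 CPM in Adipocyte. AdipoqTraced was the high group for Mcpt4, with no overlap (2 of the 8 genes against CD26, where 19.2% of all genes did the same), but its adjusted p by edgeR was 0.308 against CD26 and 0.503 against Adipocyte. Among the receptors, Kit had 6.183 and 4.886 CPM in AdipoqTraced, 5.38 and 10.93 CPM in CD26, and 0 and 7.816 CPM in Adipocyte, with all groups overlapping. Fcer1a was found only in AdipoqTraced replicate 2 of this set, at 5.401 CPM, and Ms4a2 only in CD26, at 1.614 and 0.5534 CPM.

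Over the members with a count, the median log2 ratio of means, with groups at 0 set to their bound, was 1.11 in AdipoqTraced against Adipocyte, -0.41 in AdipoqTraced against CD26 and 1.06 in CD26 against Adipocyte. The medians of all tested genes were 0.19, 0 and 0.24 on the fitted scale.

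Other genes of mast cell biology were taken from 7 lists of 84 genes, of which 66 were tested. In CD29 against AP, 13 were higher and 3 lower (2.53% of all genes were higher and 4.41% called), with a median log2 fold change of 0.59 beside 0.1 for all genes. The 3 lower ones, named after their values were seen, were Ptgs2 (cyclooxygenase 2), Il6 and Il33, a cytokine that activates mast cells. In AP_CD9High against AP_CD9Low, edgeR called 0 of the 66, where 0.0217% of all genes were called, with a median of 0.14 beside 0. In AdipoqTraced against CD26, 3 were higher and 5 lower, where 3.85% of all genes were called, with a median of -0.16 beside 0. In AdipoqTraced against Adipocyte, 16 were higher and 4 lower, where 10.5% were called, with a median of 0.89 beside 0.19. In CD26 against Adipocyte, 18 were higher and 2 lower, where 10.7% were called, with a median of 1.33 beside 0.24. Many of these genes are shared with other leukocytes or with fibroblasts.

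Within the granule list, the highest mean levels in DN were those of Cd63, a granule membrane protein found in most cells, and Ctsc, which activates granule proteases. Ctsc had 686.5 and 663.3 CPM in DN, 373.8 and 472.9 CPM in CD29, 205.8 and 148.2 CPM in AP_CD9High, and 142.3 and 86.7 CPM in AP_CD9Low. It was higher in CD29 than in AP (log2 fold change 1.57, SE 0.22, adjusted p = 0.000351 by edgeR), and macrophages express it too. Cd63 was nearly level across the set, at 1305 and 1285 CPM in DN, 1645 and 1367 CPM in CD29, and 1381 to 1448 CPM in the AP libraries. Of the receptor and signalling list, C5ar1, the receptor for complement C5a, had the highest mean in DN, at 340.7 and 295.1 CPM, with 18.79 and 130.3 CPM in CD29, 75.61 and 53.76 CPM in AP_CD9High, and 37.21 and 45.22 CPM in AP_CD9Low. Its CD29 and AP libraries overlapped. Next by mean in DN came Il4ra (292.4 CPM) and Il1rl1 (291.4 CPM). Neither was called in CD29 against AP (log2 fold change -0.47 and 0.78, adjusted p = 0.543 each by edgeR). Fcer1g, the gamma chain that the immunoglobulin E receptor shares with other Fc receptors, ranked below them and was picked with its values known. Fcer1g had 256.6 and 235.8 CPM in DN, 132.2 and 145.1 CPM in CD29, 65.63 and 59.62 CPM in AP_CD9High, and 27.66 and 44.34 CPM in AP_CD9Low. It was higher in CD29 than in AP (log2 fold change 1.55, SE 0.31, adjusted p = 0.00622 by edgeR). Mrgprb2, a receptor of connective tissue mast cells in mice that was singled out after its values were seen, had 8.755 and 0 CPM in DN and 0 in CD29 and AP.

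Of the cytokine list, Tnf was highest in DN, at 294.2 and 178.8 CPM, and was higher in CD29 (97.66 and 104.3 CPM) than in AP (20.98 to 50.61 CPM; adjusted p = 0.00213 by edgeR). Il3 and Il9, growth factors of mast cells, were at 0 in all 14 libraries, as were the histamine receptor gene Hrh3 and Aoc1, which encodes an enzyme that breaks down histamine. Gata2, a mast cell transcription factor singled out for the motif above, had 5.058 and 3.62 CPM in DN, 0 and 3.738 CPM in CD29, and 0 to 1.198 CPM in the AP libraries. Its groups overlapped in CD29 and AP. From the same list, and picked with their values known, Gata1 had 1.459 and 0 CPM in DN and Mitf was nearly level. Mitf averaged 9.934 CPM in DN, 9.211 CPM in CD29, 9.934 CPM in AP_CD9High and 8.986 CPM in AP_CD9Low.

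The summed markers of macrophages, of leukocytes in general and of neutrophils ran in the same order as the proteases. The sums for T and NK cells, B cells and basophils did not. The 12 macrophage and monocyte markers summed to 9292 and 8303 CPM in DN, 3910 and 3454 CPM in CD29, 2137 and 1822 CPM in AP_CD9High, and 1102 and 1046 CPM in AP_CD9Low. In CD29 against AP, 7 of the 12 macrophage markers and 8 of 10 general leukocyte markers were higher in the edgeR test. Of the 8 neutrophil markers tested, only 1 was higher. In each of these lists 0 were lower, and 2.53% of all genes were higher. Of other cell types, 6 of 8 pericyte and smooth muscle, 4 of 6 erythroid and 4 of 9 endothelial markers were also higher. In these lists 0 were lower, whereas 5 of 7 fibroblast markers were lower and 0 higher. The 8 mast cell genes summed to 386.6 and 428 CPM in DN, 47.87 and 89.55 CPM in CD29, 17.88 and 19.67 CPM in AP_CD9High, and 11.6 and 5.016 CPM in AP_CD9Low. The part of these other cells in the protease differences was not tested. The 5 basophil markers summed to 13.13 and 21.47 CPM in DN, 18.2 and 17.96 CPM in CD29, and 13.59 to 23.81 CPM in the AP libraries, mostly through Il3ra. Among them, the basophil proteases Mcpt8 (0.3567 and 3.246 CPM) and Prss34 (0 and 0 CPM) were low in DN, and Prss34 had 1.707 CPM in CD29 replicate 2. Taken singly, Mcpt8 and Itga2 had their highest mean of the reanalysed set in DN, at low levels. Il3ra, Cd200r3 and Prss34 did not. The 6 eosinophil markers summed to 1.946 and 1.54 CPM in DN, with Epx at 0 in all libraries. Erythroid genes summed to 5641 and 6995 CPM in DN and 266.5 and 170.3 CPM in CD29. Keratinocyte genes summed to 88.98 and 1490 CPM in DN, so the DN libraries differed from each other in that list, and neutrophil genes to 637.7 and 267.9 CPM.

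**Figure D5:**
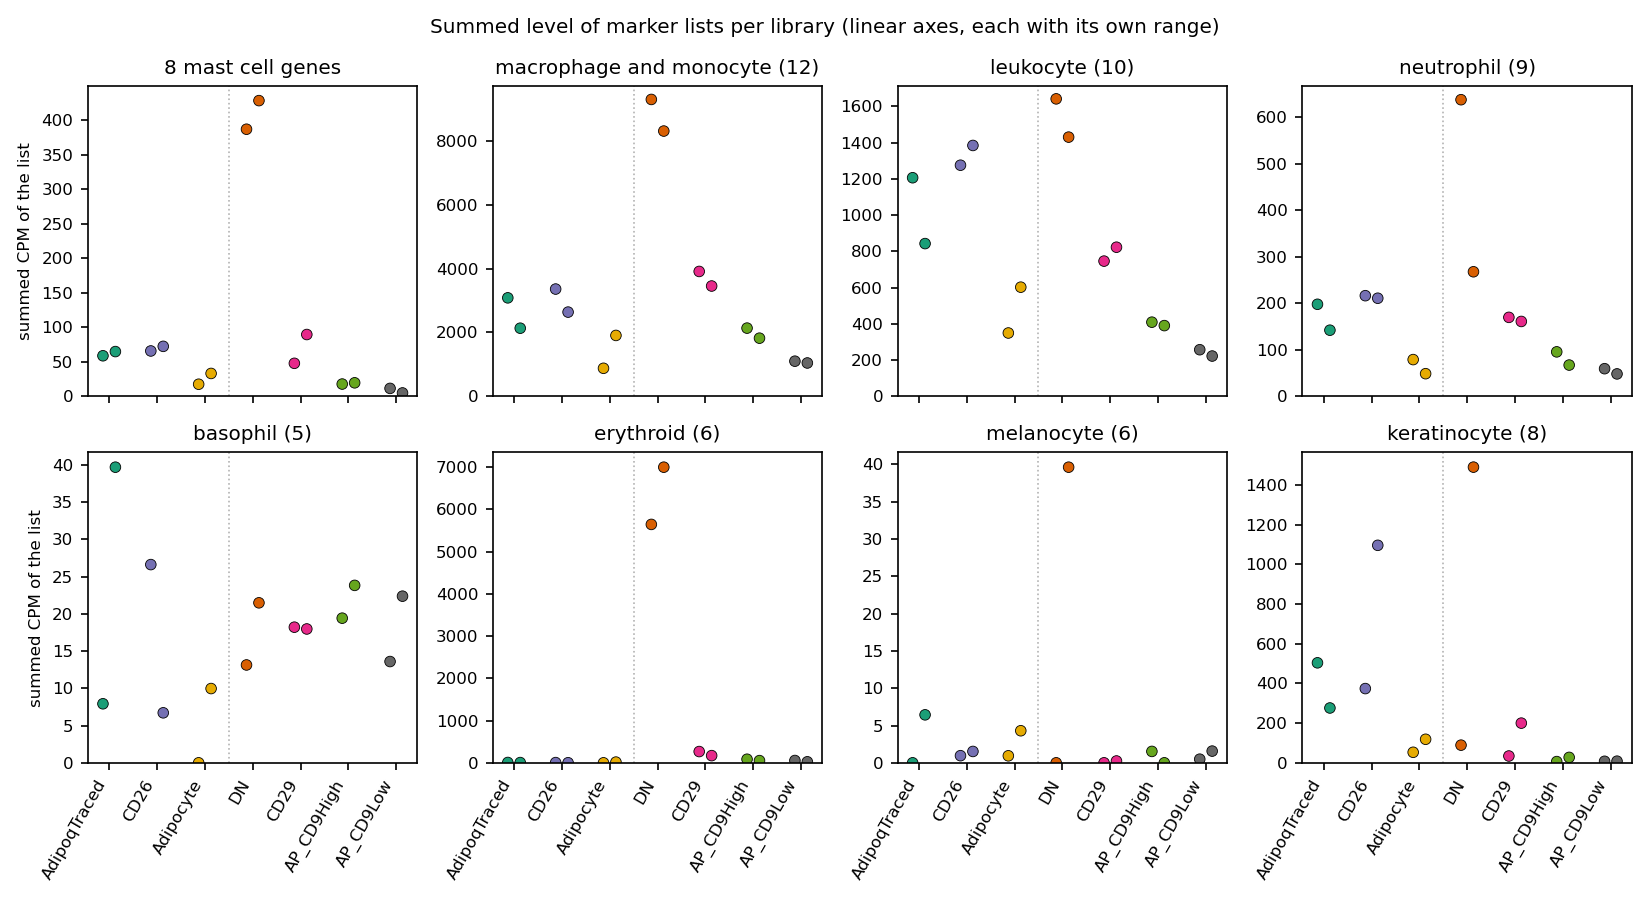
Summed CPM of the 8 mast cell genes and of 7 other marker lists in every library, with each panel on its own linear axis from 0. Macrophage, leukocyte and mast cell genes all step down over DN, CD29, AP_CD9High and AP_CD9Low, and the melanocyte list is high in DN replicate 2 alone.

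The genes most like Tpsb2 and Cma1 over the 8 libraries of the reanalysed set included several known from macrophages and other leukocytes. Likeness was Pearson's r of log2(CPM + 0.5) among 9759 genes, given as a description because the points share sorts and 4 groups and include the DN libraries, whose high Tpsb2 and Cma1 set the choice of genes, so the choice bears on these values and ranks. Next to Tpsb2 came Cd53 (r = 0.994), Slc3a2, Laptm5, Slc11a1, Cd68, Cpa3 (r = 0.989), Lpxn, C1qb, Ctss and Pf4. Among the 10 genes nearest to Cma1 were C1qb (r = 0.994), Tyrobp, Arg1, Cfp, Cd86, C1qa, Cd68, Ctsd and Fcgr3. C1qa and C1qb encode chains of complement C1q, and Tyrobp an adaptor of myeloid receptors. Tpsb2 and Cma1 correlated at r = 0.984. Among 9762 genes ranked by likeness to Tpsb2, Cpa3 ranked 6, Cma1 15 and Mcpt4 41, whereas Fcer1a ranked 320, Hdc 539, Kit 807 and Ms4a2 1891. Ranked genes had a mean of at least 5 CPM over these libraries, except Fcer1a, Kit and Ms4a2, which fell below it. The added 0.5 CPM weighs more at such low levels, and its part in their ranks was not tested.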

How the data were processed

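RNA was sequenced from 14 libraries of sorted mouse wound-bed cells, 2 per group. Per the labels' protocols, RNA was prepared with Absolutely RNA Nanoprep and SMARTer Ultra Low kits. Tools listed in the submitters' processing notes, without roles, are HISAT2 2.1, StringTie 1.3.3b, CASAVA 1.8.2 and DESeq2, with build mm10. No source used here gives the annotation release, strand setting or filters, so counting was treated as unstranded. The authors deposited raw read counts per gene, without normalisation.

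Members and lists were chosen with earlier results of these data known. Of 52636 identifiers, 52403 matched a symbol, and 0 rows lacked a gene. Counts were tested with edgeR 4.0.16 in R 4.3.3 (TMM scaling, filterByExpr, glmQLFit with robust = TRUE, glmQLFTest, two-sided), with one coefficient per group over all 14 libraries (7 residual degrees of freedom). P-values were adjusted by Benjamini-Hochberg over 18394 genes, with calls at an adjusted p under 0.05. AP is the mean of both AP coefficients (weight 0.5 each), and its libraries carry shared label numbers, so its 4 libraries may not be separate samples. DN contrasts were used for the choice and are not tested. SE is the absolute log2 fold change over the square root of F. Levels are TMM-scaled CPM, per exon length of GENCODE M21 where genes are compared. Where a group was at 0, folds are bounds against 3 counts over the group, and 3 counts also give the limit for 1 library. These cover counting error only, as reads without molecular identifiers are not independent molecules. Genes outside the members were named by their mean CPM in DN, by a count of 0 in every library or by likeness to Tpsb2 or Cma1, save those said to be picked later, and 1 gene so named is not reported here.

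The test was checked on simulated counts. The simulation was redrawn after the first settings, with smaller fold changes and lower counts, recovered few changed genes. A second version, with larger fold changes than those kept, still missed most of them. The settings kept also changed the dispersions and group means, so the simulation was made easier until changed genes were recovered. In the settings kept, the share of false calls exceeded the nominal rate several times over, and this was not resolved, so every adjusted p here may be too small. DESeq2 1.42.0, other scalings, no filter, a legacy dispersion, smaller fits, a replicate block, each library left out and AP_CD9High alone were tried.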

Additional observations from a re-analysis of the deposited data

How the results depend on the processing

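In CD29 against AP, Tpsb2 kept its call in all 17 alternatives, Cma1 in 16, and Mcpt4 and Cpa3 in 15 each. The count of 4 ran from 2 to 4 with a library left out (2 without CD29 replicate 2) and was 1 against AP_CD9High alone. In AdipoqTraced against Adipocyte the count of 0 was 2 with library size alone and 1 with the legacy dispersion, with 1 set only and with DESeq2. In AdipoqTraced against CD26 it was 1 with DESeq2 (1251 genes over the whole table), and in AP_CD9High against AP_CD9Low 3 with DESeq2 (66 genes). In CD26 against Adipocyte the count of 1 was 0 with the replicate block (Hdc adjusted p 0.0588 by edgeR), 2 with DESeq2 (1 higher and 1 lower), and 0 with each library left out (range 0 to 0). Hdc kept its call there in 9 of 14 alternatives and gained one in 4 of 14 in AdipoqTraced against Adipocyte.

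Of 549 member values under alternatives, 456 kept their direction and side of the threshold, 41 were 0 (to 2 decimals) here and as reported, 7 uncalled ones became 0, 4 uncalled ones were 0 as reported only, 10 lost a call, 10 gained one and 21 changed sign, all 21 uncalled. Where a value changed sign, the log2 fold changes were as follows, and the cause was not tested. With each library left out in turn, the values in AdipoqTraced against Adipocyte ran from -1.44 to 8.24 for Tpsb2, -6.97 to 8.07 for Cma1, -10.67 to 0.05 for Cpa3 and -0.43 to 9.97 for Kit. In AdipoqTraced against CD26 they ran from -8.89 to 0.59 for Cma1, -10.55 to 0.15 for Cpa3 and -0.65 to 0.01 for Hdc. In CD26 against Adipocyte they ran from -0.65 to 1.21 for Mcpt4 and -0.89 to 0.38 for Cpa3. Hdc in AP_CD9High against AP_CD9Low ran from -0.01 to 1.2, and Kit in CD29 against AP from -4.9 to 2.95. With library size alone, Cpa3 was 1.13 in AdipoqTraced against Adipocyte, Hdc 0.08 in AdipoqTraced against CD26, and Mcpt4 1.7 and Cpa3 1.61 in CD26 against Adipocyte. With no filter, Mcpt4 was 0.06 in CD26 against Adipocyte, and against AP_CD9High alone Kit in CD29 was -0.52.

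Genes called over the whole table ran from 958 to 8207 in AdipoqTraced against Adipocyte, 70 to 1251 in AdipoqTraced against CD26, 969 to 6502 in CD26 against Adipocyte, 0 to 66 in AP_CD9High against AP_CD9Low and 278 to 1124 in CD29 against AP, against 1929, 709, 1961, 4 and 811 as reported. With 2 libraries a group, a lone library left by an omission is assumed to vary like the other groups. The labels do not say what the replicate numbers mark. Same-numbered libraries deviated together little (r of -0.0186 to -0.0137 in the new set and 0.00374 to 0.0718 in the reanalysed set), so no pairing was used, although a small r does not show that samples are unpaired and both AP groups carry the same numbers. The replicate block ended the call of no other member. Low non-mitochondrial depth limits what 0 counts mean in Adipocyte.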
